A study of Mus musculus with 2 samples.

Results

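Natural killer (NK) cells of MB49 tumours were taken from 2 single-cell RNA libraries as the cells that carried NK receptor transcripts and lacked those of the CD3 complex. A cell was a member when it had at least 200 genes and at most 20% mitochondrial unique molecular identifiers (UMIs, each marking 1 captured mRNA molecule), and when Ncr1, Klrb1c and Klra8 together gave at least 2 UMIs. It also had no UMI of Cd3e, Cd3g or Cd3d, of C1qa, C1qb or C1qc, of Xcr1 or Clec9a, or of Foxp3. The rule found 358 cells among 15259 kept cells (15762 barcodes in all), 162 of them in the wt library and 196 in the Lcn2-ko-labelled library. Members were thus chosen by their measured UMIs of these genes, whose levels below are a description and were not tested.

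Both libraries came from live CD45+ cells sorted from digested tumours of MB49, a mouse bladder cancer line, and were captured in BD Rhapsody microwells. The hosts of both groups were lethally irradiated female mice rebuilt with male marrow, which was wild type in the group labelled wt and lacked Lcn2 in the group labelled Lcn2-ko. Ages, the number of mice behind a library and the exons removed from Lcn2 are not given in the sources used here. The labels present the chimera as a stand-in for loss of Lcn2 in myeloid cells, but marrow also gives rise to lymphocytes, NK cells among them, and host tissue and tumour were not altered. The labels give the sex of both samples as female. The series was designed around Lcn2, a secreted siderophore-binding lipocalin, and tumour neutrophils. With 1 library per group there was no replicate check, so no difference was tested. The 95% intervals cover counting error only. Levels are the share of a gene among the summed UMIs of a class, scaled to 1e+06 (CPM), and every ratio is the log2 of the Lcn2-ko-labelled level divided by the wt level.

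NK cells are lymphocytes that kill stressed or transformed cells without a rearranged antigen receptor. Activating receptors such as NKp46 (Ncr1) and NKG2D (Klrk1) are weighed against inhibitory receptors of the Ly49 (Klra) and NKG2A families that read MHC class I. Killing uses perforin and granzymes, and the cells also secrete interferon gamma and the chemokines CCL3, CCL4, CCL5 and XCL1. The transcription factor Eomes separates NK cells from type 1 innate lymphoid cells (ILC1), a tissue-resident relative that carries the collagen receptor subunit CD49a (Itga1).

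The upstream sequences of 2 genes of the rule, Ncr1 and Klra8, are given here because these genes help define the cells. That of Gzma, a granzyme detected in most members of both libraries but not used by the rule, is given beside them. Each run is the 250 bases before the first listed RefSeq start site on GRCm38.p6, 5' to 3' on the strand of the gene, and capitals mark matches to a T-box motif (AGGTGT or its reverse complement ACACCT) or a Runx site (TGTGGT or ACCACA). T-box factors include Eomes and T-bet, and Runx3 is a lymphocyte factor.
Ncr1 (chr7:4337465-4337714, plus strand): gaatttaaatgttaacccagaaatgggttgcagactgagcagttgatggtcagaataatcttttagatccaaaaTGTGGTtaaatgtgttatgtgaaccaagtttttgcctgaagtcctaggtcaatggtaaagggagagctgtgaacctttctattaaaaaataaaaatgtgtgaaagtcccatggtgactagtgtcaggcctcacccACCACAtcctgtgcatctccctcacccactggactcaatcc
Klra8 (chr6:130129899-130130148, minus strand): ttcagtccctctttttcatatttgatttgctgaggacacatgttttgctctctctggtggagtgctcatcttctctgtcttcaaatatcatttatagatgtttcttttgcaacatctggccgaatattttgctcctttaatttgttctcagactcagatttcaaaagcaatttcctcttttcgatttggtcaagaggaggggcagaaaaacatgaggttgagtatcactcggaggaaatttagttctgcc
Gzma (chr13:113100982-113101231, minus strand): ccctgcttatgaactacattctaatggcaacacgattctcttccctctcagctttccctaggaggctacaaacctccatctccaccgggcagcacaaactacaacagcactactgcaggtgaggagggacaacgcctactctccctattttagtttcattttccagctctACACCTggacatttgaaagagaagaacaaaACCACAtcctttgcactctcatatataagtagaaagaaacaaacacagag
The Ncr1 window held 2 Runx matches, the Gzma window 1 Runx and 1 T-box match, and the Klra8 window neither motif. Among windows of the same length of 27025 genes, 14.2% held the Runx letters and 11.99% the T-box letters, on either strand. A match is a string of letters and not a shown binding site.

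The members were sequenced to similar depth in both libraries. Median UMIs per cell were 3247 in wt (547 to 14358) and 2962 (665 to 7847) in the Lcn2-ko-labelled library, with medians of 1570.5 and 1456.5 genes and 4.35% and 4.33% mitochondrial UMIs. Their summed UMIs were 589791 and 644011. The libraries shared 4 barcodes, and 0 of them belonged to NK cells.

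Before any comparison, 8 members stood apart by carrying RNA of other cell types. They are the members with at least 5 UMIs of any 1 of S100a8, Lyz2, Col1a1, Krt18, Cd79a or Apoe, and each library had 4. In wt, 3 of them had 14358, 11815 and 10401 UMIs, with 79, 4 and 25 UMIs of the collagen gene Col1a1 and 18, 71 and 21 of the tumour-associated membrane protein gene Tm4sf1. The other wt member had 37 UMIs of the neutrophil gene S100a8. In the Lcn2-ko-labelled library the 4 cells had between 3485 and 6022 UMIs, and their highest counts were 27 UMIs of Lyz2 and 23 of Col1a1. All 8 stayed in the values below, and results that rest on them are given again without them (158 and 192 cells). This limit was chosen after the data were seen.

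Over all members, summed markers of tumour or stroma (Krt8, Krt18, Col1a1, Col3a1, Sparc) summed to 454 wt and 217 Lcn2-ko-labelled CPM, with 5 of 5 detected. In the other kept cells they stood at 3956 and 3866 CPM. Neutrophil markers stood at 166 and 82.3 CPM, against 483 and 263 CPM in the other kept cells. Of the 48 wt S100a8 UMIs in members, 37 came from 1 cell. Monocyte-macrophage markers stood at 88.2 and 129 CPM. B cell markers stood at 10.2 and 0 CPM, and dendritic markers at 5.09 and 1.55 CPM, with Siglech at 0 in both libraries. The membership rule itself sets C1qa of the monocyte-macrophage list and Xcr1 and Clec9a of the dendritic list to 0, so these sums are low in part by construction. Markers of type 2 and type 3 innate lymphoid cells summed to 226 and 248 CPM, against 239 and 254 CPM in the other kept cells. Nearly all of that sum was Gata3, a factor that T and NK cells also express, at 220 and 236 CPM, while Il1rl1 had 3 and 7 UMIs, Il23r 0 and 1, and Il17a 0 in both. The tumour and neutrophil markers were therefore higher in wt members, and the neutrophil markers were higher in the other kept wt cells as well. The part of these markers in other differences was not tested beyond the values without the 8 cells.

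Members made up 2.10% of kept wt cells (162 of 7712, exact Clopper-Pearson interval 1.79 to 2.45%) and 2.60% (196 of 7547, 2.25 to 2.98%) in the Lcn2-ko-labelled library. The difference was 0.496 percentage points, with a Newcombe interval of 0.0155 to 0.982. It lies close to 0 at its lower end. Among kept cells with a UMI of Ptprc, the CD45 gene of the sort, the shares were 3.0% and 3.58%, and the interval of the difference (-0.109 to 1.26) held 0. CD3-positive cells that met the same receptor limit, used as a comparison, made up 1.27% and 1.30%. CD8 T cells with no receptor UMI, the other comparison, made up 9.45% and 13.01%. A share of captured cells also moves with the numbers of every other type.

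Cells near the receptor limit graded into the members. With exactly 1 receptor UMI, just outside the rule, 41 wt and 53 Lcn2-ko-labelled cells had Eomes at 150 and 133 CPM and Gzma at 1045 and 1540 CPM. With exactly 2, just inside, 30 and 37 cells had Eomes at 163 and 210 CPM and Gzma at 1831 and 2971 CPM. With 3 or more, 132 and 159 cells had Eomes at 257 and 374 CPM and Gzma at 3594 and 4140 CPM. Cells with 0 receptor UMIs that met the other limits had Eomes at 1.44 and 2.39 CPM, so the cells just outside were far closer to members than to the rest. Cells with at least 2 receptor UMIs that were left out for exactly 1 CD3 UMI numbered 19 and 32, and they had Eomes at 203 and 276 CPM with Trac, the T cell receptor alpha constant gene, at 56.3 and 32.4 CPM. Another 24 and 40 cells were left out for a C1q, Xcr1, Clec9a or Foxp3 UMI and had Eomes at 336 and 269 CPM.

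The label NK was borne out by genes that the rule did not use. Eomes stood at 241 CPM in wt members and 349 CPM in the Lcn2-ko-labelled library, against 69.3 and 38.5 CPM in CD8 T cells. Gzma, a tryptase granzyme, stood at 3283 and 3967 CPM against 859 and 918 CPM. Of the rule's own genes, Klrb1c (NK1.1) was detected in 90.1% and 91.8% of members, Ncr1 in 69.1% and 60.2%, and Klra8 (Ly49H) in 30.9% and 36.2%. Only 21 and 29 members had UMIs of all 3, while 37 and 52 had UMIs of 1 of them. Klra8 belongs to the Ly49 family of close paralogs, whose 3' reads may be split by the counting, so levels of single Klra genes are uncertain.

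Transcripts of the T cell receptor were present in part. Trac stood at 37.3 and 40.4 CPM in members, against 1130 and 1068 CPM in CD8 T cells, and Cd8a at 1.70 and 4.66 CPM. Trbc1, a beta constant gene, stood at 307 and 312 CPM and was detected in 60.5% and 60.2% of members, above its 178 and 231 CPM in CD8 T cells. The second beta constant gene, Trbc2, stood at 124 and 146 CPM, below its level in CD8 T cells. The delta constant gene Trdc stood at 61.0 and 54.3 CPM and was detected in 17.3% and 13.3% of members. It stood at 3.22 and 2.19 CPM in CD8 T cells and at 215 and 239 CPM in CD3-positive receptor cells. The members thus had Trac and Trbc2 below the level of CD8 T cells, and Trbc1 and Trdc above it. Cd28, another T marker gene, stood at 139 and 205 CPM and was detected in 30.2% and 36.2% of members. Its level was 129 and 130 CPM in CD3-positive receptor cells and 296 and 280 CPM in CD8 T cells. The 11 T markers summed to 621 and 719 CPM in members, against 7039 and 7159 CPM in CD8 T cells. The rule itself removes the CD3 genes from the members' sum.

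The members' most distinctive genes, by fold over all other kept cells in the library with the smaller fold and with the rule's own genes left out, are a description of the rule. Car2, a carbonic anhydrase, led with 939 and 1158 CPM, 31.7 and 33.6 times the other cells. The Ly49 gene Klra9 followed (45.7 and 30.6 times), then Gzmc (34.8 and 20.2 times), Eomes (19.4 and 27.0 times) and Gzma (27.5 and 18.5 times). Next came Adamts14, Klri2, Emid1, Klre1, Nrarp, Txk (a TEC-family kinase) and Klra3, each between 12.3 and 21.6 times. CD3-positive cells with receptor UMIs carried some of these genes too. Emid1 stood at 107 and 109 CPM in members and 111 and 122 CPM there. All others stood higher in members, with Klra9 at 164 and 177 against 78.3 and 132 CPM. In the Lcn2-ko-labelled library Gzmc was detected in 37.2% of members and 36.7% of those cells. Car2 was detected in 86.4% and 91.3% of members, more members than any 1 of Eomes, Gzma and Gzmc.

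Set beside T cells, members shared some effector genes and differed in others. Gzmb, the granzyme that cleaves caspases, stood at 2080 and 1994 CPM in members and at 2274 and 3238 CPM in CD3-positive cells with receptor UMIs. Perforin (Prf1) stood at 449 and 472 CPM against 83.4 and 127 CPM in those cells and 122 and 199 CPM in CD8 T cells. The order was turned for Cxcr6, a chemokine receptor of tissue lymphocytes, at 27.1 and 21.7 CPM in members and 308 and 299 CPM in CD8 T cells, and for Ccl5, at 992 and 1390 CPM against 2402 and 2010 CPM. The classes are separated by the rule itself, so these values are side by side without a test.

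**Figure D1:**
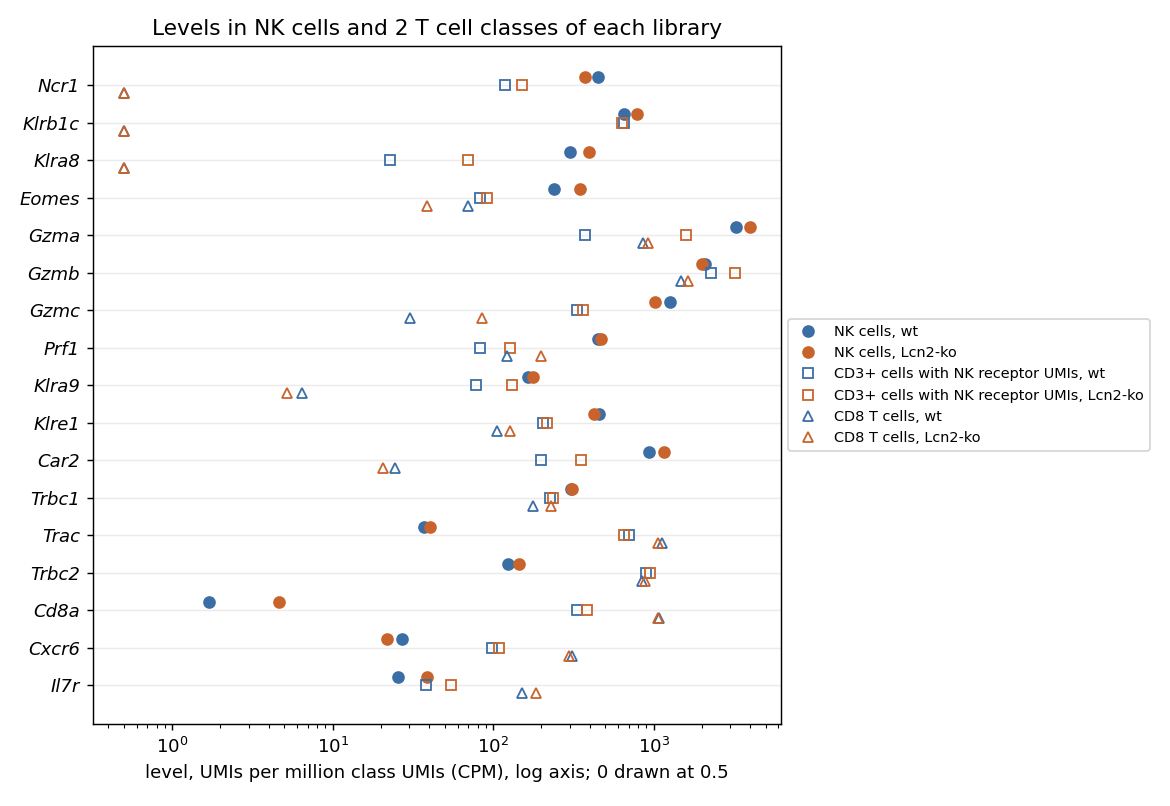
Level of 17 genes (CPM, log axis, 0 drawn at 0.5) in NK cells (filled circles), CD3-positive cells with NK receptor UMIs (squares) and CD8 T cells (triangles) of the wt (blue) and Lcn2-ko (orange) libraries. NK cells lie to the right for Eomes, Gzma, Gzmc, Prf1 and Car2, and slightly to the right for Trbc1. They lie to the left for Trac, Cd8a and Cxcr6, and beside the other classes for Gzmb.

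Lcn2 itself gave 9 UMIs in 2 wt members, 6 of them in 1 cell, and 3 UMIs in 3 members of the Lcn2-ko-labelled library. The other kept cells had 695 Lcn2 UMIs in 351 cells (16.9 CPM) in wt and 630 UMIs in 326 cells (15.8 CPM) in the Lcn2-ko-labelled library, so Lcn2 RNA was at a like level under both labels. UMIs here come from the 3' ends of transcripts, and the deleted stretch is not given in the sources used here, so these counts cannot check the genotype. Since male marrow went into female hosts, UMIs of the Y-linked genes Uty, Kdm5d, Ddx3y and Eif2s3y mark donor cells. Members that showed Y-linked UMIs but not Xist were 91 of 162 in wt (56.2%, 48.2 to 63.9%) and 100 of 196 (51.0%, 43.8 to 58.2%), a difference of -5.15 points (-15.3 to 5.19). Members with Xist and no Y-linked UMI were 0 in wt, which allows up to 2.25%, and 1 in the Lcn2-ko-labelled library, with 2 more that held both. Among CD8 T cells the Xist-only share was 11.2% and 17.8%. Almost every member whose origin could be read was therefore of donor type in both libraries, while 43.8% and 47.4% had neither transcript and could not be placed.

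Over the transcriptome, few well-measured genes differed in the summed members. The 3531 genes compared had 50 CPM or more in 1 of the libraries and 50 UMIs or more in the sum of both. Of these, 138 (3.91%) were higher by 1.5-fold or more in the Lcn2-ko-labelled library and 236 (6.68%) lower, with a median ratio of -0.0049. Intervals lay above 0 for 4.9% of them and below 0 for 6.77%. Without the 8 cells the counts were 154 (4.44%) and 176 (5.08%) of 3467 genes. For the gene groups, a gene counts as measured where 1 of the libraries has 20 CPM or more. Over all 6363 genes at that limit, 7.72% were 1.5-fold higher and 12.3% lower, with a median of -0.02, and those shares are what a group is read against. Without the 8 cells the shares were 8.85% and 10.8%. Each count of genes past 1.5-fold in the 24 lists then differed by at most 1, except the lower genes of the interferon gamma list (3 in place of 1) and of the cell cycle list.

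Among genes that reached 100 CPM, the highest ratio was that of Icos, a costimulatory receptor of the CD28 family. It had 66 wt and 131 Lcn2-ko-labelled UMIs, or 112 and 203 CPM (0.86, interval 0.42 to 1.31). Icos was also higher in CD8 T cells (0.54) and in CD3-positive receptor cells (0.91). In the 29 and 31 NK cells with no T, B, myeloid or Col1a1 UMI its ratio was -0.48. Pdlim5, an actin-associated LIM protein gene, followed at 66.1 and 116 CPM (0.82), then Sft2d2 (0.80) and Os9, a lectin of endoplasmic reticulum quality control (0.72). The rest were Agpat5 (0.71), the glucocorticoid receptor gene Nr3c1 (0.69), Vmp1 of autophagosome formation (0.68), the histone demethylase gene Kdm2b (0.67), the kinase gene Pim3 (0.66) and Crybg1 (0.65). All 10 intervals lay above 0 and none of these genes had more than 9 UMIs in a single cell. Without the 8 cells all 10 kept a ratio above 0, and 7 of them were again among the 10 highest.

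The lowest ratios split in kind. Cnn3, an actin-binding calponin gene, had 80 UMIs in wt and 11 in the Lcn2-ko-labelled library (-2.99, -4.05 to -2.07), and 48 of the 80 came from 1 wt cell. Tm4sf1 (-2.50), Vcam1 (-2.37), Emp1 (-1.75) and Sod3 (-1.73) were alike, with 71, 46, 78 and 44 UMIs in their top wt cell. Without the 8 cells these 5 ratios were 0.26, 0.54, 0.18, 0.73 and 0.037. The differences in these genes thus rested on wt members that also carried tumour or stroma RNA. Ube2c, a mitotic ubiquitin-conjugating enzyme gene, was -2.19 and remained low without them (-1.42), and Actn1 went from -1.64 to -0.83. The heat shock genes Hspa1a and Hspa1b, near-identical copies whose reads may be split, were -1.62 each and -1.80 and -1.77 without them.

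**Figure D2:**
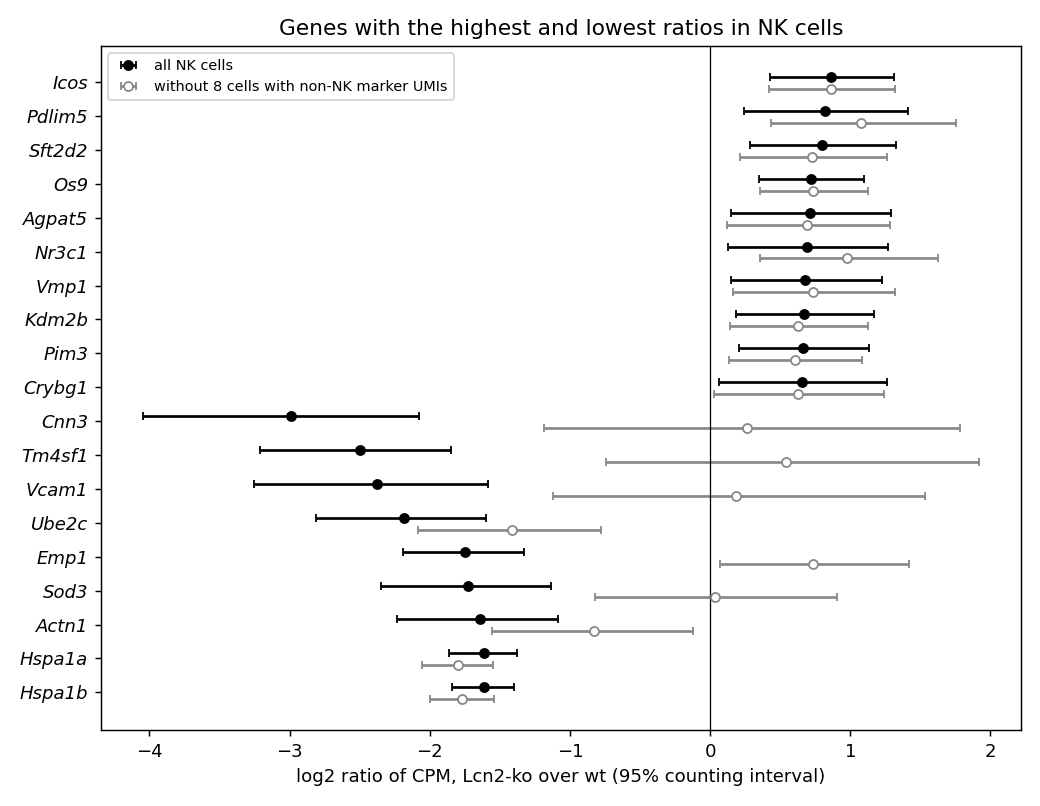
Log2 ratio of CPM, Lcn2-ko over wt, with 95% counting intervals, of the 10 highest and 9 of the 10 lowest genes by ratio, over all 358 NK cells (black) and without the 8 cells with at least 5 UMIs of a non-NK marker (grey, open). Cnn3, Tm4sf1, Vcam1, Emp1 and Sod3 move from below -1.6 to above 0, while Hspa1a and Hspa1b keep their place.

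Without those cells the lowest 10 also included 3 chemokine genes and the cytokine gene Il1b. Ccl3 stood at 196 and 35.2 CPM (-2.48, interval -3.21 to -1.80), Cxcl2 at 393 and 107 CPM (-1.88) and Ccl4 at 580 and 189 CPM (-1.62). Il1b stood at 150 and 51.2 CPM (-1.55). Single cells weighed heavily here too. Of the cells left out, 1 in the Lcn2-ko-labelled library had held 31 of its 53 Ccl3 UMIs. The top wt cell held 50 of the 107 wt UMIs for Ccl3, 83 of the 215 for Cxcl2 and 38 of the 82 for Il1b. Myc, a growth regulator, was low with no such cell, at 245 and 89.6 CPM (-1.45) and at most 9 UMIs in a cell, and Fau, Pld3 and Ube2c completed the 10.

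The cytotoxic granule genes differed by small amounts between the libraries. Of 17 measured, 0 were 1.5-fold higher and 1 lower, with a median of 0.13. Intervals lay above 0 for 7 of them and below 0 for 2. Of the 3531 genes with at least 50 CPM and 50 UMIs, those shares were 4.9% and 6.77%. The summed list had a ratio of 0.12 (0.07 to 0.16). Gzma was detected in 59.3% of wt members and 71.4% of members of the Lcn2-ko-labelled library, with a median of 2.5 and 6 UMIs per cell and a ratio of 0.27 (0.19 to 0.36). Prf1 (0.07) and Gzmb (-0.06) had intervals that held 0, while Gzmc was slightly lower (-0.31, -0.47 to -0.16) and Serpinb9, an inhibitor of granzyme B, slightly higher (0.29). Gzmg, the member past 1.5-fold, rested on 12 UMIs against 1 (-3.71, -9.13 to -0.96), and reads of Gzmd, Gzme, Gzmf and Gzmg may be split between close paralogs. The genes that dock and release granules differed little, with 0 of 12 higher, 1 lower (Unc13d, -0.59, -1.41 to 0.22) and a median of 0.01.

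After thinning each cell to 1000 UMIs (161 and 192 cells), Gzma was detected in 50.9% and 63.5% of members (difference 12.6 points, 2.26 to 22.6) and Eomes in 17.4% and 26.6% (9.17 points, 0.426 to 17.5). Unthinned, Eomes was detected in 42.0% and 51.5%, with an interval of the difference (-0.823 to 19.6) that held 0. In CD8 T cells thinned alike, Gzma was detected in 11.98% and 12.9%, but these cells have the gene at 859 and 918 CPM and are no background class. The Gzma ratio was 0.10 in CD8 T cells and 0.85 in the other kept cells. It was 2.08 in CD3-positive receptor cells (374 and 1582 CPM, 11.2% and 25.5% of cells, unthinned), so the higher level was not particular to the members. Cells with 0 receptor UMIs that met the other limits had a Gzma UMI in 2.95% and 4.52% of cells, unthinned and at median depths of 3844 and 4083 UMIs, above those of the members.

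Receptors of both signs were also at like levels. Of 17 measured activating receptors and adaptors, 1 was 1.5-fold higher (Cd2, 0.61, -0.04 to 1.28) and 0 lower, with a median of 0.09. Tyrobp (DAP12), the adaptor of activating Ly49 receptors, stood at 1075 and 1304 CPM (0.28, 0.13 to 0.43) and Klrk1 at 436 and 432 CPM (-0.01). Of 15 inhibitory receptors 2 were higher and 2 lower (median 0.07). Klra5 had 3 UMIs against 15 (2.195, 0.37 to 4.63) and Cd96, which competes for a ligand of the activating receptor CD226, stood at 54.3 and 87.0 CPM (0.68, 0.03 to 1.35), whereas Lag3 (-0.71) and Lilrb4a (-1.39) had intervals that held 0. Klrd1 (CD94, 690 and 717 CPM) and Klrb1b (500 and 561 CPM), the most abundant of the list, differed by 0.06 and 0.16. The checkpoint gene Pdcd1 was below the limit, with 9 and 5 UMIs. None of 21 signalling genes downstream passed 1.5-fold (median 0.11), among them Rac2 (-0.05) and Sh2d2a (0.21).

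Secreted factors differed more. Of 15 measured, 2 were higher and 4 lower, with a median of -0.22. The list's median was -0.51 in CD3-positive receptor cells (7 of 14 lower), -0.31 in CD8 T cells (1 of 13 lower) and 0.05 in the other kept cells. Ccl4 stood at 549 and 266 CPM (-1.05, -1.32 to -0.78), Ccl3 at 187 and 82.3 CPM (-1.18) and Tnf at 86.5 and 29.5 CPM (-1.55). Ccl1 had 16 UMIs in 4 wt members and 0 in the Lcn2-ko-labelled library, a ratio of -2.54 or lower with 0 set to a floor of 3 UMIs in that library. The signals were unevenly spread. The top 5 cells held 69.1% and 75.5% of the Ccl3 UMIs and 64.2% and 53.8% of the Ccl4 UMIs, and 1 cell held 28 of the 51 wt Tnf UMIs and another 17 of the 22 Lta UMIs of the Lcn2-ko-labelled library.

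Chemokines spread over more members differed less. Xcl1, which attracts cross-presenting dendritic cells, was detected in 82.7% and 70.9% of members, at 1387 and 1121 CPM (-0.31, -0.45 to -0.16). At 1000 UMIs per cell the shares were 50.9% and 45.3%, and the interval of that difference (-15.9 to 4.796) held 0. Ccl5 stood at 992 and 1390 CPM (0.49, 0.33 to 0.64), against -0.26 in CD8 T cells and -0.28 in CD3-positive receptor cells. Xcl1 was lower in those classes as well (-0.53 and -0.23). Ifng, the signature cytokine of the lineage, had only 36 and 31 UMIs (-0.34, -1.08 to 0.39), and a difference in it was not resolved at this depth.

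**Figure D3:**
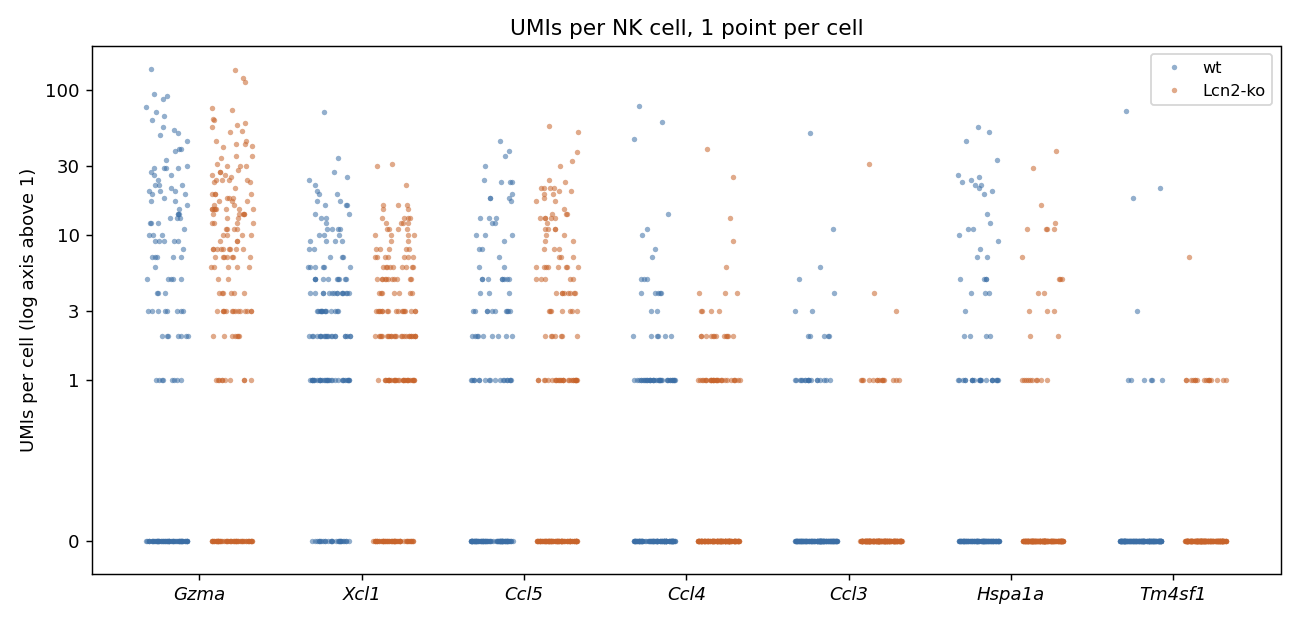
UMIs per NK cell (log axis above 1), 1 point per cell, of 7 genes in the wt (blue, 162 cells) and Lcn2-ko (orange, 196 cells) libraries. Gzma, Xcl1 and Ccl5 are spread over many cells, Ccl3 and Ccl4 rest on a few cells with up to 77 UMIs, and Tm4sf1 on 3 wt cells with 71, 21 and 18 UMIs.

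Genes of circulating, mature NK cells had the highest median of the 24 lists, 0.34 over 9 measured, with 1 higher and 0 lower. The integrin gene Itgam (CD11b), a maturation marker, stood at 37.3 and 71.4 CPM (0.94, 0.17 to 1.74), and in 8.64% and 13.8% of members. With at least 3 receptor UMIs required, the Itgam ratio was -0.045. Klf2, which controls lymphocyte egress, stood at 302 and 433 CPM (0.52, 0.25 to 0.80), and Zeb2 was at 0.42 with an interval that held 0. The egress receptor gene S1pr5 and Cx3cr1, both known from mature NK cells, were nearly undetected, with 5 and 3 and with 4 and 5 UMIs.

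Genes tied to tissue residence and ILC1 were mixed, with 1 of 12 measured higher and 4 lower (median -0.02). All 4 lower genes had intervals below 0. Itga1 stood at 185 and 120 CPM (-0.63, -1.07 to -0.19), the phosphatase gene Inpp4b at 226 and 137 CPM (-0.72, -1.13 to -0.32), the stem cell factor receptor gene Kit at 149 and 82.3 CPM (-0.86, -1.38 to -0.35), and the integrin gene Itgae (CD103) had 18 and 7 UMIs (-1.49, -2.99 to -0.16). Other genes of the list did not follow, with Tnfsf10 (TRAIL) at 0.02, Itgb3 at 0.09 and Tmem176b at 0.54. Itga1 was detected in 35.2% and 25.5% of members, but at 1000 UMIs per cell the shares were 13.7% and 9.38%, and the interval of that difference (-11.3 to 2.38) held 0.

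Lineage factors differed little, with 0 of 21 past 1.5-fold in either direction and a median of 0.15. Eomes (0.54, 0.23 to 0.85), Klf2 and Ets1 (0.21) had intervals above 0, and Tbx21 (T-bet), the other T-box factor of the lineage, stood at 232 and 202 CPM (-0.20, -0.56 to 0.15). Id2 (-0.12), Irf8 (0.13), Gata3 (0.10) and Runx3 (0.01) were at like levels. Immature CD27+ NK genes (11 measured, 1 higher and 1 lower, median 0.07) included Emb (0.41, 0.24 to 0.58), and Cd27 itself had 19 and 29 UMIs (0.48, -0.40 to 1.40). Homing genes (18 measured, 2 higher and 1 lower, median 0.17) included the oxysterol receptor gene Gpr183 at 44.1 and 77.6 CPM (0.82, 0.11 to 1.56) and Ccr2 (0.32), which guides cells to inflamed tissue.

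Cytokine receptors and their signalling genes had 4 of 31 higher, 2 lower and a median of 0.14. Il2rb, the beta chain through which interleukin-15 sustains NK cells, was found in 99.4% and 99.5% of members at 3479 and 3915 CPM (0.17, 0.09 to 0.25). Stat4, downstream of interleukin-12, was at 0.50 (0.10 to 0.90). The 4 higher genes (Jak3, Stat5a, Il2ra, Il7r) each had intervals that held 0. Myc was the lowest of the list, detected in 37.7% and 20.9% of members (-1.44, -1.91 to -0.999), and it was also lower in CD8 T cells (-0.43) and CD3-positive receptor cells (-0.63). Of 14 genes of TGF-beta receptors and targets 0 were higher and 2 lower (median 0.04), the latter being Itga1 and Itgae, with Tgfbr2 at 0.16 and Smad7 at 0.03.

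Heat shock chaperones gave the lowest median, -0.42 over 14 measured, with 0 higher and 5 lower and 10 intervals below 0. Hspa1a was detected in 34.6% of wt members and 14.8% of members of the Lcn2-ko-labelled library, at 914 and 298 CPM. The constitutive Hspa8 (-0.21) and Hsp90ab1 (-0.22) differed less, and the reticulum chaperones Hspa5 (-0.08) and Hsp90b1 (-0.02) had intervals that held 0. The same direction held outside NK cells. The list's median was -0.43 in CD8 T cells, -0.36 in CD3-positive receptor cells and -0.21 in the other kept cells, and Hspa1a was at -2.08, -1.51 and -1.58 in those classes. The lower chaperone level was thus present in every class compared and as large in CD8 T cells as in NK cells.

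Immediate-early genes had 0 of 19 higher and 3 lower, with a median of -0.09. The lower ones were Egr1 (361 and 177 CPM, -1.03, -1.37 to -0.69), Egr2 (-1.31) and Egr3 (26 and 7 UMIs, -2.02), a family induced by receptor signalling. Jun (-0.49) and Nr4a1 (-0.28) were lower by less, Jund was higher (0.25) and Fosb (-0.09) was level. Over all genes at the same limit 12.3% were lower and the median was -0.02, so the 1.5-fold count and median lay near those of all genes. Smaller differences were frequent, with 8 of the 19 intervals below 0 and 1 above. Of the 3531 genes with at least 50 CPM and 50 UMIs, 6.77% had intervals below 0 and 4.9% above. The list's median was -0.30 in CD8 T cells and -0.34 in CD3-positive receptor cells. Among 13 activation genes Icos was the 1 past 1.5-fold (median 0.07), and Nfkbia, the feedback inhibitor of NF-kB, stood at 1870 and 1433 CPM (-0.38, -0.51 to -0.26).

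In the type I interferon response 5 of 17 genes were lower and 0 higher (median -0.31), at low counts. Rsad2 had 27 and 10 UMIs (-1.56), 14 of the wt UMIs in 1 cell, Oasl2 had 18 and 6 (-1.71) and Rtp4 13 and 2 (-2.83, -6.02 to -0.68). Without the 8 cells the median was -0.14, with 4 of 15 lower. In CD3-positive receptor cells the list's median was -0.34, with 9 of 21 lower and 5 higher. Over all genes at the same limit in that class, 18.0% were lower and 12.9% higher. The list's median was -0.01 in CD8 T cells, with 2 of 21 lower and 1 higher. Trim30a, the best measured of the 5, stood at 149 and 91.6 CPM (-0.70, -1.20 to -0.21). Of 15 interferon gamma response genes 2 were higher and 1 lower (median 0.13), and without the 8 cells 1 was higher and 3 lower of 14 (median 0.047). Over all members the list had Gbp3 at 0.87 (0.12 to 1.66), Irf1 at 0.26 and Cd274 at -0.50. Genes of MHC class I presentation were level, with 0 of 20 past 1.5-fold and a median of 0.10, H2-K1 at 0.11 and H2-D1 at 0.16.

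Cell cycle genes had 2 of 30 higher and 12 lower (median -0.37). The proliferation marker gene Mki67 stood at 134 and 85.4 CPM (-0.65), with Top2a at -0.62, Birc5 at -0.62, Aurkb at -2.13 (16 and 4 UMIs) and Ccnb1 at -2.35 (14 and 3 UMIs). Among genes of DNA synthesis, Mcm2 stood at 30.5 and 77.6 CPM (1.35, 0.54 to 2.21) and Pcna at 0.37 (0.09 to 0.65). Others of that kind had intervals that held 0, at ratios from 0.70 for Tyms through -0.04 for Dut and -0.31 for Rrm2 to -0.92 for Tk1. Without the 8 cells 5 of 29 were lower and 3 higher, with a median of -0.19, and Mki67 was at -0.42 and Ccnb1 at -0.93. The intervals of Mki67, Top2a, Birc5, Aurkb and Ccnb1 then all held 0, while those of Mcm2 (1.28) and Pcna (0.32) stayed above 0 and that of Ube2c below 0. The median was 0.08 in CD8 T cells and 0.41 in CD3-positive receptor cells. Mki67 was detected in 16.0% and 11.7% of members, with an interval of the difference (-11.8 to 2.84) that held 0.

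Metabolic lists lay near the background. Glycolysis and hypoxia genes had 1 of 22 higher (Pfkl, 5 and 16 UMIs) and 0 lower, with a median of -0.07 and Gapdh at -0.26. Nuclear-encoded respiratory chain genes had 1 of 31 higher (Ndufb9, 0.59, -0.05 to 1.25), 0 lower and a median of 0.04. Iron handling, the field of Lcn2, had 2 of 13 higher and 1 lower (median 0.15). Ferritin heavy chain Fth1 stood at 1943 and 1828 CPM (-0.09, -0.21 to 0.03), the transferrin receptor Tfrc at 62.7 and 69.9 CPM (0.16), and Slc39a14, a zinc and iron importer, at 49.2 and 24.8 CPM (-0.98, -1.96 to -0.06). The candidate Lcn2 receptor gene Slc22a17 gave 0 UMIs in both libraries, where the floor is 3 UMIs. Of 6 death ligand genes 1 was higher and 2 lower (median -0.10), and Fasl was at 0.10.

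**Figure D4:**
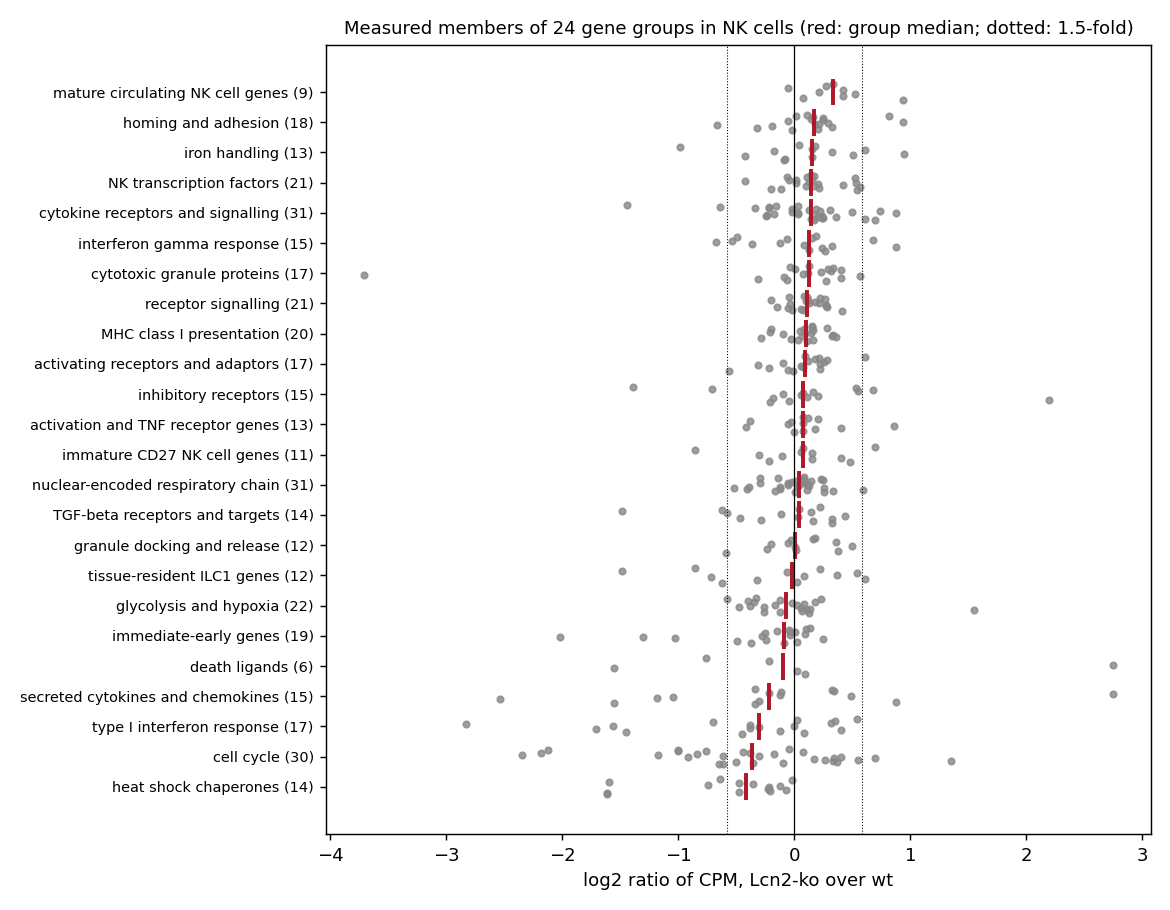
Log2 ratio of CPM in NK cells, Lcn2-ko over wt, of the measured members (grey points, number in brackets) of 24 gene lists, with each list's median in red and 1.5-fold marked by dotted lines. A gene with 0 UMIs in 1 library is drawn at its bound. Medians run from -0.42 for heat shock chaperones to 0.34 for mature circulating NK cell genes.

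Within the members, cells with and without an Itga1 UMI differed in the same direction in both libraries for several genes. This split was chosen after the values were seen and has no test. Cells with Itga1 numbered 57 of 162 in wt and 50 of 196 in the Lcn2-ko-labelled library, and they were deeper, with median UMIs of 3827 against 2877 and 3908 against 2742.5. Ccl5 stood at 477 CPM with Itga1 and 1358 CPM without in wt (with over without -1.51, interval -1.81 to -1.21), and at 625 and 1734 CPM in the Lcn2-ko-labelled library (-1.47, -1.76 to -1.20). Klf2 was likewise lower with Itga1 (-1.03 and -1.31), as was Klra4, an activating Ly49 gene (-0.86 and -0.78). Klra8 was lower too (-1.19 and -0.49), but it is a gene of the rule. A shallower cell needs a higher share of the rule's genes to be a member, so this ratio is in part set by the rule.

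Other genes were higher in cells with Itga1. Gzmc stood at 1529 against 1083 CPM in wt (0.50) and at 1330 against 883 CPM in the Lcn2-ko-labelled library (0.59). Ikzf2 (Helios, 1.49 and 1.02) and the integrin gene Itgax (CD11c, 0.83 and 0.40) were higher too, with intervals above 0 in both libraries. Eomes was lower with Itga1 (-0.39 and -0.73), and its wt interval held 0 (-0.92 to 0.12), while cells with Itga1 still had it at 204 and 240 CPM. Gzma and Ccl4 had opposite signs in the libraries (0.32 and -0.18, and -2.14 and 0.79). For Ccl4, 1 of the 8 cells with other cells' RNA held 39 of the 75 UMIs of Lcn2-ko-labelled cells with Itga1. The split was not repeated without it, so the Ccl4 sign in that library is uncertain.

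**Figure D5:**
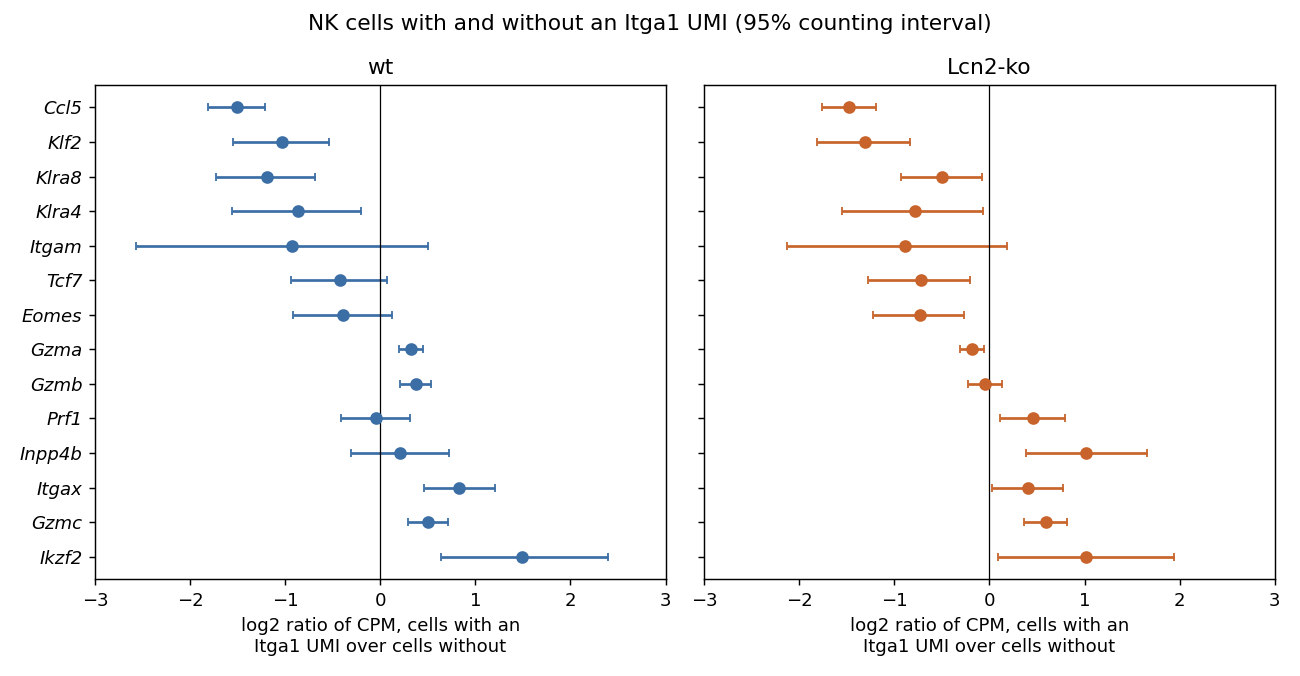
Log2 ratio of CPM in NK cells with an Itga1 UMI over NK cells without, with 95% counting intervals, for 14 genes in the wt (left) and Lcn2-ko (right) libraries. Ccl5, Klf2, Klra4 and Klra8 (a gene of the rule) lie below 0 in both, Itgax, Gzmc and Ikzf2 above 0 in both, and Gzma on opposite sides.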

How the data were processed

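The authors deposited raw UMI counts per gene and cell barcode for 31253 genes in 2 libraries (42069099 UMIs in wt and 40959725 in Lcn2-ko), with no normalization. Cell Ranger and mm10 are named in the submitters' processing notes, with no version or role. Groups were taken from the genotype label. The limits on cells are given with the results. UMIs were summed over a class and scaled to CPM with Python 3.11.15, numpy 2.4.6, scipy 1.17.1 and pandas 2.3.3. Intervals at 95% are exact Poisson or conditional binomial for UMIs and ratios, Clopper-Pearson for shares and Newcombe for differences of shares. A count of 0 allows up to 3. Since reads of amplified molecules are collapsed by UMI, they cover counting error only.

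CD3-positive receptor cells had at least 2 receptor and at least 2 CD3 UMIs. CD8 T cells had at least 2 CD3 UMIs, at least 1 Cd8a or Cd8b1 UMI, no Cd4 and no receptor UMI. The other limits were as for NK cells. Doublets were not removed. The highest 4% of Scrublet scores (scanpy 1.11.5), which held 5 and 2 members, were left out as an alternative, as were other limits on cells, scaling, depth and single cells.

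The text names the 10 highest and 10 lowest ratios among genes with at least 100 CPM, up to 4 members per list, the 12 most distinctive genes (the rule's genes left out), the rule's genes, and listed genes whose level is described. Sex-linked, mitochondrial, ribosomal protein, haemoglobin, receptor segment and predicted genes, Lcn2 and the rule's genes were left out of the first. Fau, under its own symbol, was not. The members and lists were chosen with earlier results of these data known. Trbc1 and the Itga1 split were added after the values were seen. Of the listed genes, 1 had no match. Genes withheld from reporting are not named here but stay in the counts. Ratio code was tested on simulated data. Promoter windows came from RefSeq (GRCm38.p6).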

Additional observations from a re-analysis of the deposited data

How the results depend on the processing

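Of 4 main values, the counts of genes past 1.5-fold have no direction that could change. The difference in NK share stayed above 0 under all alternatives. The difference in the share of members with Y-linked UMIs and no Xist changed sign. It was -5.15 points as reported and 4.50 points after thinning to 1000 UMIs, with intervals that held 0 in both. Over the alternatives, 37 main values stayed within the reported interval or, for counts, within 1.5-fold of the reported count, and 7 did not. The difference in NK share was 1.00 point (its interval held 0) among kept cells with Ptprc and without C1q, Csf1r or S100a8 UMIs. Its interval also held 0 with at least 3 receptor UMIs, with 500 genes per cell, after thinning, and where cells with T, B, myeloid or Col1a1 UMIs were left out (0.0347). Genes 1.5-fold higher and lower numbered 42 and 72 of 1120 after thinning, 3 and 21 of 780 with at least 200 CPM, and 26 and 27 of 399 when cells with any T, B, myeloid or Col1a1 UMI were left out. The cause was not tested beyond the smaller number of genes measured. That last limit left 29 and 31 cells, since Trbc1 alone removes most members, and 16 genes whose reported interval excluded 0 changed sign under it: Actn1 (0.67), Ccnb1, Cnn3, Rtp4 and Ube2c (1.52 each), Cox8a (-0.30), Ctla2a (-0.50), Emp1 (1.07), Hmgb2 (0.16), Icos (-0.48), Jund (-0.39), Tnf (2.25), Srgn (-0.051), Tapbp (-0.0092), Tm4sf1 (0.93) and Vmp1 (-0.068). Without the 8 members with other cells' RNA, Cnn3 (0.26), Emp1 (0.73), Sod3 (0.037), Srgn (-0.031), Tm4sf1 (0.54) and Vcam1 (0.18) did by the same condition. After thinning Ccnb1 (0.75), Ctla2a (-0.013) and Rtp4 (0.33) did, with at least 1 receptor UMI Srgn (-0.047), and with at least 3 Itgam (-0.045). Of the named genes' values under alternatives, 1208 stayed within the reported interval, 27 changed sign where that interval excluded 0, and 115 others lay outside it. Genes whose reported interval held 0 changed sign more freely, such as Cd2 and Jak3, and are not counted among the 27. No paired analysis was possible because each group has 1 library, and no library could be left out.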
